A study of Mus musculus with 4 samples.

Results

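The genes described here are 10 targets of NRF2, measured in p53-/- mouse fetal liver progenitor cells that were transformed by an oncogene or left non-transformed. They are Gclc, Gclm, Slc7a11, Srxn1, Txnrd1, Nqo1, Cbr3, Hmox1, Abcc4 and Osgin1. Each was found by the probe sets that the annotation of the array gives to that gene symbol alone, which came to 18 of 45101 probe sets and to 10 of 18193 genes. NRF2, encoded by Nfe2l2, is a transcription factor that KEAP1 holds at a low level by marking it for breakdown. When electrophiles or oxidants modify KEAP1, NRF2 collects in the nucleus, pairs with a small MAF protein and binds antioxidant response elements in front of genes for glutathione synthesis, thiol repair and detoxification. In liver this programme is known for its part in the handling of drugs and other toxic compounds, and BACH1, a heme-sensing repressor, competes for the same elements.

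RNA of 4 cultures was measured on single-colour Affymetrix mouse arrays, 1 array for each culture. Their labels are H-RasV12 (for a GTPase locked in its active state), myr-Akt (for a kinase that a myristoyl anchor keeps at the membrane), c-Myc (for a transcription factor that drives growth) and non-transformed. All 4 cultures, the non-transformed one included, lacked p53. All grew in the same medium, to which EGF (20 ng/ml), HGF (50 ng/ml) and 10% fetal bovine serum had been added along with dexamethasone, nicotinic acid, 2-mercaptoethanol and ITS supplement, and no source used here gives the age of the fetuses or the vectors. With 1 array a culture there is no spread between replicates and no p-value, so each difference below is one between arrays, and their number limits the precision. The c-Myc, myr-Akt and H-RasV12 comparisons with non-transformed cells share the 1 non-transformed array.

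Values are MAS5 intensities, called signals here. A signal under 100.001, which is 20% of the trimmed mean of an array, was set to that floor before log2 was taken. A difference counts as 2-fold from a log2 value of 1 upwards, or of -1 downwards. Between 9492 and 10216 genes were above the floor on each array, and 10679 were above it on 1 array or more, as were all 10 NRF2 targets. The Myc signal was 1747 for H-RasV12, 639.7 for myr-Akt and 421 for c-Myc, against 2285 for non-transformed cells, so it was lowest where the label names this gene. No source used here says whether the probe set detects the introduced gene, so in all that follows this array is c-Myc by its label only. The Akt1 signal was 2760.3 for H-RasV12, 2834 for myr-Akt and 2991 for c-Myc, against 1870.1 for non-transformed cells, so it does not single out the myr-Akt array either. Of 9 hepatocyte markers, 5 were above the floor on the H-RasV12 array, 0 on the myr-Akt array and 0 on the c-Myc array, against 1 on the non-transformed array, and Alb was under the floor on all arrays but that of H-RasV12. Of 6 progenitor and biliary markers, 5 were above the floor on the H-RasV12 array, 5 on the myr-Akt array and 4 on the c-Myc array, against 6 on the non-transformed array, with Sox9 and Epcam above it on 2 arrays each. Of 10 mesenchymal and stellate markers the counts were 8, 7 and 5, against 8, and of 6 mesothelial markers 5, 6 and 6, against 6. In such whole-culture RNA, fewer cells of a type and less RNA per cell cannot be told apart.

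The promoters of 8 of the 10 genes were found in RefSeq's table for mouse build GRCm38.p6, as 11 windows that each run from 250 bases before to 50 bases after a transcript start. Gclc and Hmox1 were not matched. The windows were searched on both strands for TGACNNNGC, the core letters of the antioxidant response element, for TGACTCA, the AP-1 site, for TGACTCAGC, which holds both, and for the E-box CACGTG that MYC and MAX bind. The form of the element with G as the fourth letter, which its consensus also allows, was not searched. The 3 windows below are shown because they hold the core letters, printed in capitals, in a glutathione synthesis gene, a thiol repair gene and an exporter that differ in how they stood on the c-Myc array.
Gclm (chr3:122245307-122245606, plus strand): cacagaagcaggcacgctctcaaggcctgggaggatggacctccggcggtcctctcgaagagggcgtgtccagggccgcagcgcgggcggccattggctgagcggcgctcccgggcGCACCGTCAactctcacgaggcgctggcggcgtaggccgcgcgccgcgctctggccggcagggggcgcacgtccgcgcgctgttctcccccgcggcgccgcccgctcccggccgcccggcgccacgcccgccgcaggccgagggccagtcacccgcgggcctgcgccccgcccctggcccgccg
Srxn1 (chr2:152105274-152105573, plus strand): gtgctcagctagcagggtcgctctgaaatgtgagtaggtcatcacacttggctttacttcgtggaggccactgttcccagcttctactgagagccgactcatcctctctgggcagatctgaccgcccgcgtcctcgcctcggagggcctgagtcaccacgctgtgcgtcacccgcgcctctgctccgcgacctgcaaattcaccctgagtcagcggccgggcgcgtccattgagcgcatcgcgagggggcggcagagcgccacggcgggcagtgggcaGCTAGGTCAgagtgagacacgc
Abcc4 (chr14:118706170-118706469, minus strand): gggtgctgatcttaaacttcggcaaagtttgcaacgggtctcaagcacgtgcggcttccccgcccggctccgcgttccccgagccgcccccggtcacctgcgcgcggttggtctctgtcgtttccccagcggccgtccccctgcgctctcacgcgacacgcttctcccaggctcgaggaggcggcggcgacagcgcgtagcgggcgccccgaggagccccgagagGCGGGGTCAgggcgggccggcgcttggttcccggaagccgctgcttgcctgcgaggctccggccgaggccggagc

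Read 5′ to 3′, the match in Gclm was TGACGGTGC, whose leftmost base in the window is at position -134 from the start, that in Srxn1 was TGACCTAGC at position 29 and that in Abcc4 was TGACCCCGC at position -25. All 3 lay on the strand opposite to the gene. A further window of Abcc4 held TGACTCTGC and 1 of the 3 windows of Txnrd1 held TGACAAAGC. In all, 4 of 8 matched genes had the core letters in a window, as had 14.0% of the 27025 genes in the table, counting the windows of a gene together. Srxn1 held TGACTCA at 2 positions, -102 and -45, and Osgin1 held it once, at -97, so 2 of 8 had it against 5.95% of all genes. At -45 the printed Srxn1 window reads TGAGTCAGC, the form of the element with G as the fourth letter. How many other windows hold that form was not counted. TGACTCAGC was in 0 of 8 and in 0.503% of all genes, and CACGTG was in 1 of 8, Abcc4, and in 8.09% of all genes. No match of 1 motif overlapped a match of another in these windows. Nqo1, Cbr3 and Slc7a11 held no match to these letters. A match is a run of letters and not a measured binding site, and elements farther from the start lie outside the windows.

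Across the 10 genes the myr-Akt array gave the highest signal for 8 and the H-RasV12 array for 2, Slc7a11 and Osgin1. Among all 10679 genes above the floor on at least 1 array, 22.6% were highest on the H-RasV12 array, 23.9% on the myr-Akt array and 22.7% on the c-Myc array, against 30.8% on the non-transformed array. The c-Myc array gave the lowest signal for 6 of the 10 and the non-transformed array for the other 4, which were Gclc, Gclm, Abcc4 and Osgin1. This split depends on the scaling. With each array scaled to its median, Txnrd1, Hmox1 and Nqo1 were higher on the c-Myc than on the non-transformed array (0.33, 0.18 and 0.06). Of all genes, 21.9% were lowest on the H-RasV12 array, 25.4% on the myr-Akt array and 22.2% on the c-Myc array, against 30.4% on the non-transformed array. All 10 were higher on both the H-RasV12 and the myr-Akt array than on the non-transformed array, as were 33.8% of all genes. For 9 of the 10 genes, Gclm being the exception, both the H-RasV12 and the myr-Akt signal lay above both the c-Myc and the non-transformed signal, an order that 9.36% of all genes showed. With each array scaled to its median signal this held for 8 genes, with the floor at 40% of the trimmed mean also for 8, and with the mean over probe sets for all 10. The 10 genes were chosen with earlier results of these data known, and these orders were checked in ways chosen after seeing the data. Counts of the 10 beside shares of all genes are thus descriptions and do not test for an excess. Of the 18 probe sets, 15 were brightest on the myr-Akt array and 3 on the H-RasV12 array.

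**Figure D1:**
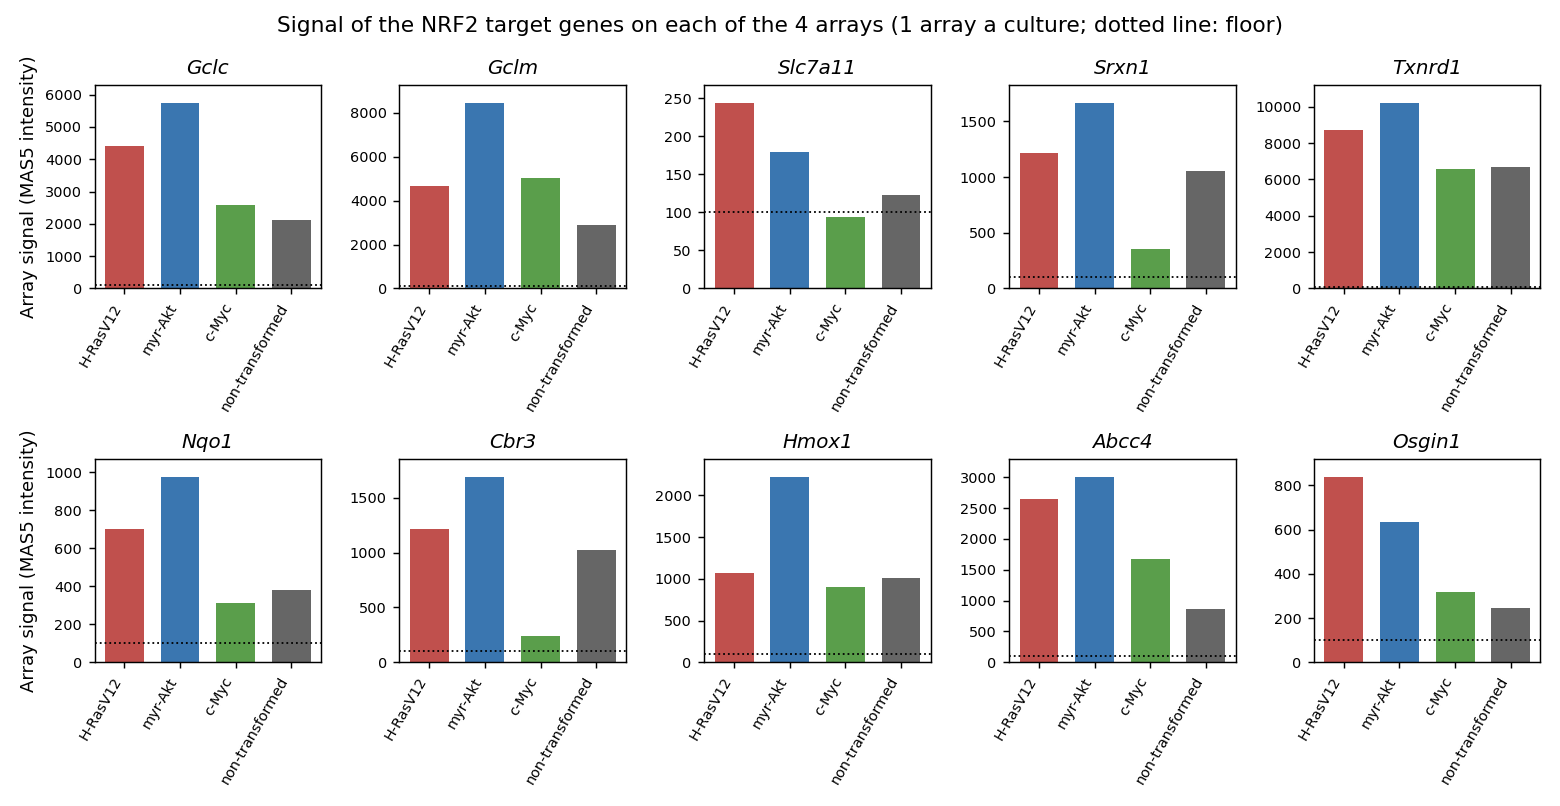
Signal (MAS5 intensity, linear axis from 0) of each NRF2 target gene on the H-RasV12, myr-Akt, c-Myc and non-transformed arrays, by its brightest probe set, with 1 bar for 1 array and a dotted line at the floor of 100.001. The myr-Akt bar is the tallest for 8 of 10 genes, and the c-Myc bar of Cbr3 (239) stands far below its other 3 bars.

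Glutathione synthesis starts with glutamate-cysteine ligase, whose catalytic subunit is encoded by Gclc and whose modifier subunit by Gclm. Gclc had a signal of 4424 on the H-RasV12 array, 5728 on the myr-Akt array and 2582 on the c-Myc array, against 2109 on the non-transformed array. It was thus 2.10 times higher on the H-RasV12 array and 2.72 times higher on the myr-Akt array, and its log2 difference on the c-Myc array was 0.29. The other Gclc probe set had the same order of arrays, with log2 differences of 0.90, 1.13 and 0.19, and with the mean of both probe sets the H-RasV12 difference was 0.98, under 2-fold. Gclm had a signal of 4659 on the H-RasV12 array, 8421 on the myr-Akt array and 5036.5 on the c-Myc array, against 2895 on the non-transformed array. Its myr-Akt signal was 2.91 times the non-transformed one, and among the 10 genes it alone was higher on the c-Myc than on the H-RasV12 array, with a log2 difference of -0.11 (H-RasV12 minus c-Myc). A dimmer Gclm probe set put these 2 arrays the other way round, at 393.5 on the H-RasV12 array and 296 on the c-Myc array, while its myr-Akt difference from non-transformed was 1.53.

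Slc7a11 encodes the cystine carrier of the xCT antiporter, which brings in the cystine that glutathione synthesis draws on, and ATF4 is known to induce it as well as NRF2. Its signals were close to the floor, at 243 on the H-RasV12 array, 179.8 on the myr-Akt array and 94.4 on the c-Myc array, against 123 on the non-transformed array. The log2 difference from non-transformed was 0.98 on the H-RasV12 array and 0.55 on the myr-Akt array, both short of 2-fold, and the c-Myc signal was under the floor. A dimmer probe set had signals of 123.8 on the H-RasV12 array, 161 on the myr-Akt array and 30.1 on the c-Myc array, against 86.1 on the non-transformed array. The c-Myc and non-transformed signals were under the floor, so its differences from non-transformed are bounds, at least 1.24-fold for H-RasV12 and at least 1.61-fold for myr-Akt. The probe sets thus differ on which of these cultures had the higher signal. With the floor at 40% of the trimmed mean, the H-RasV12 difference came to 0.28 and the myr-Akt difference to 0.

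Thiol repair is represented by Srxn1, the sulfiredoxin that restores over-oxidised peroxiredoxins, and by Txnrd1, the cytosolic thioredoxin reductase, a selenoprotein. Srxn1 had a signal of 1218 on the H-RasV12 array, 1661 on the myr-Akt array and 357 on the c-Myc array, against 1053.5 on the non-transformed array. It was 2.95 times lower on the c-Myc array than in non-transformed cells and 1.58 times higher on the myr-Akt array. The next brightest of its 4 probe sets gave the same picture, with a log2 difference of -1.71 on the c-Myc array and 0.42 on the myr-Akt array. The other 2 Srxn1 probe sets were under the floor on the c-Myc array, and 1 of them on the non-transformed array too, so the mean over all 4 gave -0.87, short of 2-fold. Txnrd1 varied least of the 10 genes, with a signal of 8695 on the H-RasV12 array, 10184 on the myr-Akt array and 6597 on the c-Myc array, against 6706 on the non-transformed array. Its highest signal was 1.54 times its lowest, and its other 2 probe sets were dim, 1 of them under the floor on all 4 arrays.

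**Figure D2:**
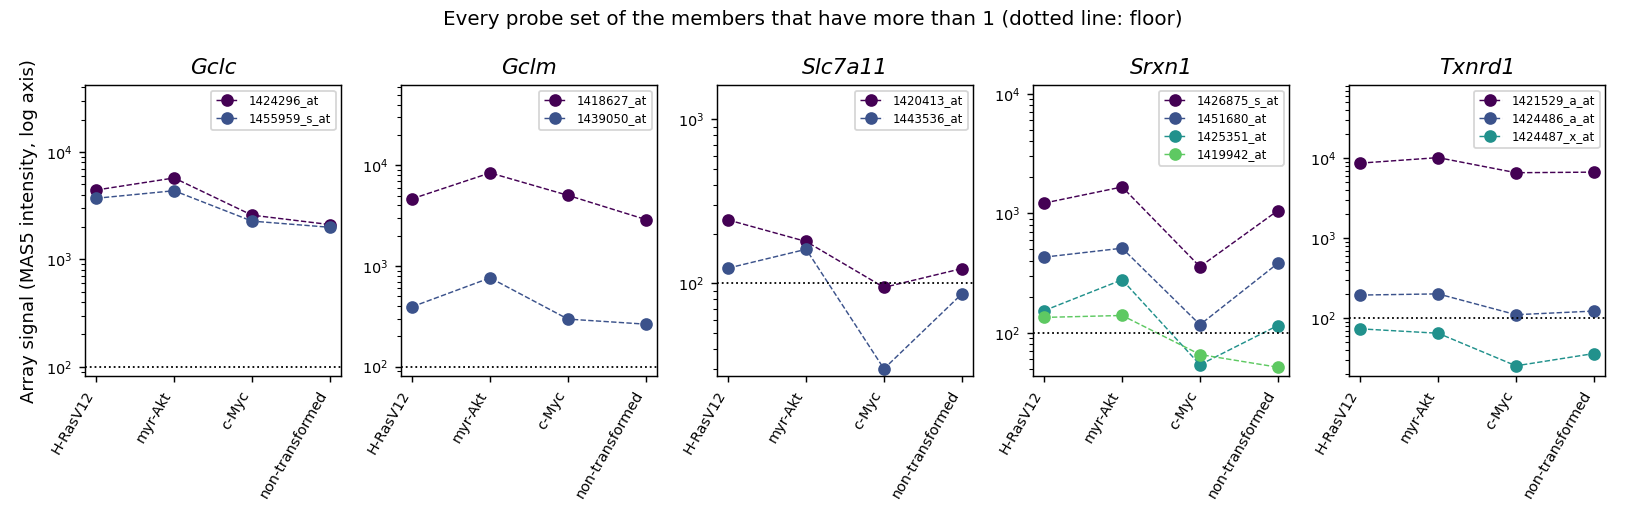
Signal (MAS5 intensity, log axis) of every probe set of the 5 genes that have more than 1, on the H-RasV12, myr-Akt, c-Myc and non-transformed arrays, with 1 point for 1 array, dashes joining the points of a probe set and a dotted line at the floor. The brightest pair of Srxn1 probe sets dips on the c-Myc array, to 357 and 117, and the Slc7a11 probe sets lie near or under the floor.

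Detoxification is represented by Nqo1, a quinone reductase that spares cells the redox cycling of quinones, and by Cbr3, a carbonyl reductase. Nqo1 had a signal of 703 on the H-RasV12 array, 973 on the myr-Akt array and 311 on the c-Myc array, against 382 on the non-transformed array. Its log2 difference was 0.88 on the H-RasV12 array, 1.35 on the myr-Akt array and -0.30 on the c-Myc array, where it came to 0.06 with each array scaled to its median. Cbr3 had a signal of 1215 on the H-RasV12 array, 1689 on the myr-Akt array and 239 on the c-Myc array, against 1025 on the non-transformed array. It had the widest range of the 10 genes, 7.06-fold, and was 4.28 times lower on the c-Myc array than on the non-transformed one, a log2 difference of -2.10, and 2.92% of all genes were as low or lower. Nqo1 and Cbr3 each have 1 probe set, so no further probe set could be set against them.

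Hmox1 encodes heme oxygenase 1, which opens the heme ring and which BACH1 represses until heme releases it. Its signal was 1065 on the H-RasV12 array, 2217 on the myr-Akt array and 902 on the c-Myc array, against 1014 on the non-transformed array. The myr-Akt signal was 2.19 times the non-transformed one and the H-RasV12 signal 1.05 times it, so the myr-Akt array stood apart from the other 3. Hmox1, too, has 1 probe set only. Macrophages are a rich source of Hmox1 in liver, and of 12 macrophage and Kupffer cell markers 2, Cd68 and Csf1r, were above the floor on any array, at signals of up to 131 and 145. Ptprc, Lyz2, Adgre1 and Cd163 were under the floor on all 4 arrays, and the summed signal of the 12 was 352 on the H-RasV12 array, 351 on the myr-Akt array and 194 on the c-Myc array, against 284 on the non-transformed array. These sums include the markers under the floor, and the part of macrophages in the Hmox1 signals was not tested.

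Abcc4 encodes MRP4, a pump that exports organic anions and cyclic nucleotides, and Osgin1 a growth inhibitor induced by oxidative stress. Abcc4 had a signal of 2640.4 on the H-RasV12 array, 3001 on the myr-Akt array and 1681 on the c-Myc array, against 859 on the non-transformed array. Relative to non-transformed cells it was 3.07 times higher on the H-RasV12 array, 3.49 times on the myr-Akt array and 1.96 times on the c-Myc array. Osgin1 had a signal of 837 on the H-RasV12 array, 635 on the myr-Akt array and 317 on the c-Myc array, against 245 on the non-transformed array. Its differences were 3.42-fold on the H-RasV12 array and 2.59-fold on the myr-Akt array, and 0.384% of all genes lay as high as Osgin1 on the H-RasV12 array relative to the non-transformed one. Abcc4 and Osgin1 each have 1 probe set, so their values could not be set against a further one.

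The H-RasV12 culture had higher signals than the non-transformed culture for all 10 genes, and 3 of them, Osgin1, Abcc4 and Gclc, were at least 2-fold higher. At least 2-fold higher were 2.08% of all genes, and the median log2 difference was 0.78 for the 10 genes and 0.003 for all genes. None of the 10 was at least 2-fold lower, as were 6.27% of all genes. The smallest differences were those of Hmox1 (0.07), Srxn1 (0.21) and Cbr3 (0.25). Of 9 hepatocyte markers with a probe set, 3 were at least 2-fold higher on this array, while mesothelial and mesenchymal markers had lower sums. The 3 were Apoa1, Afp and Ttr, with Afp and Ttr as bounds because they were under the floor on the non-transformed array. Afp, Ttr, Alb and Hnf4a were above the floor on the H-RasV12 array only. The summed hepatocyte signal was 5849 on the H-RasV12 array against 744 on the non-transformed array. Apoa1 alone made up 4299.7 and 638.2 of these, and Alb (167.6) and Hnf4a (169.1) lay close to the floor on the H-RasV12 array. The summed mesothelial signal was 10059 on the H-RasV12 array against 35179.9 on the non-transformed array, with 5 of 6 markers at least 2-fold lower. The summed mesenchymal signal was 58518 on the H-RasV12 array against 107390 on the non-transformed array, with 4 of 9 at least 2-fold lower. Of 6 progenitor and biliary markers, 3 were at least 2-fold higher and 1 was lower. The part of these cell types in the differences of the 10 genes was not tested.

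On the myr-Akt array 6 of the 10 genes were at least 2-fold higher than in non-transformed cells, namely Abcc4, Gclm, Gclc, Osgin1, Nqo1 and Hmox1. This compares with 4.9% of all genes, and the median was 1.24 for the 10 genes and -0.02 for all. None was at least 2-fold lower, as were 12.7% of all genes. The other 4, Cbr3 (0.72), Srxn1 (0.66), Txnrd1 (0.60) and Slc7a11 (0.55), were higher by less than 2-fold. Mesenchymal markers had a summed signal of 63029.5 on the myr-Akt array against 107390 on the non-transformed array, with 4 of 9 at least 2-fold lower and 1 higher, and 1 of 6 mesothelial markers, Msln, was lower (-5.04). Of 6 progenitor and biliary markers, 1 was at least 2-fold higher and 2 were lower. The part of these cells in the differences of the 10 genes was not tested.

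Between c-Myc and non-transformed cells the 10 genes differed in both directions. Cbr3 and Srxn1 were at least 2-fold lower, against 11.3% of all genes, and 0 were at least 2-fold higher, against 4.42%. Abcc4 (0.97), Gclm (0.80), Osgin1 (0.37) and Gclc (0.29) had higher signals on the c-Myc array, and the median was -0.10, which turned to 0.26 with each array scaled to its median. Txnrd1 (-0.02), Hmox1 (-0.17), Nqo1 (-0.30) and Slc7a11 (-0.30, bound by the floor) had lower ones, but the first 3 of these came out higher, at 0.33, 0.18 and 0.06, with each array scaled to its median, a scaling that itself moved the median of all genes to 0.31. Mesenchymal markers had a summed signal of 50189 on the c-Myc array against 107390 on the non-transformed array, with 5 of 9 at least 2-fold lower. Of 6 mesothelial markers 1, Msln, was lower (-4.49). Of 6 progenitor and biliary markers 1, Dlk1, was higher (4.02) and 1, Sox9, was lower (-1.96, bound by the floor). The part of such cells in the differences of the 10 genes was not tested.

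**Figure D3:**
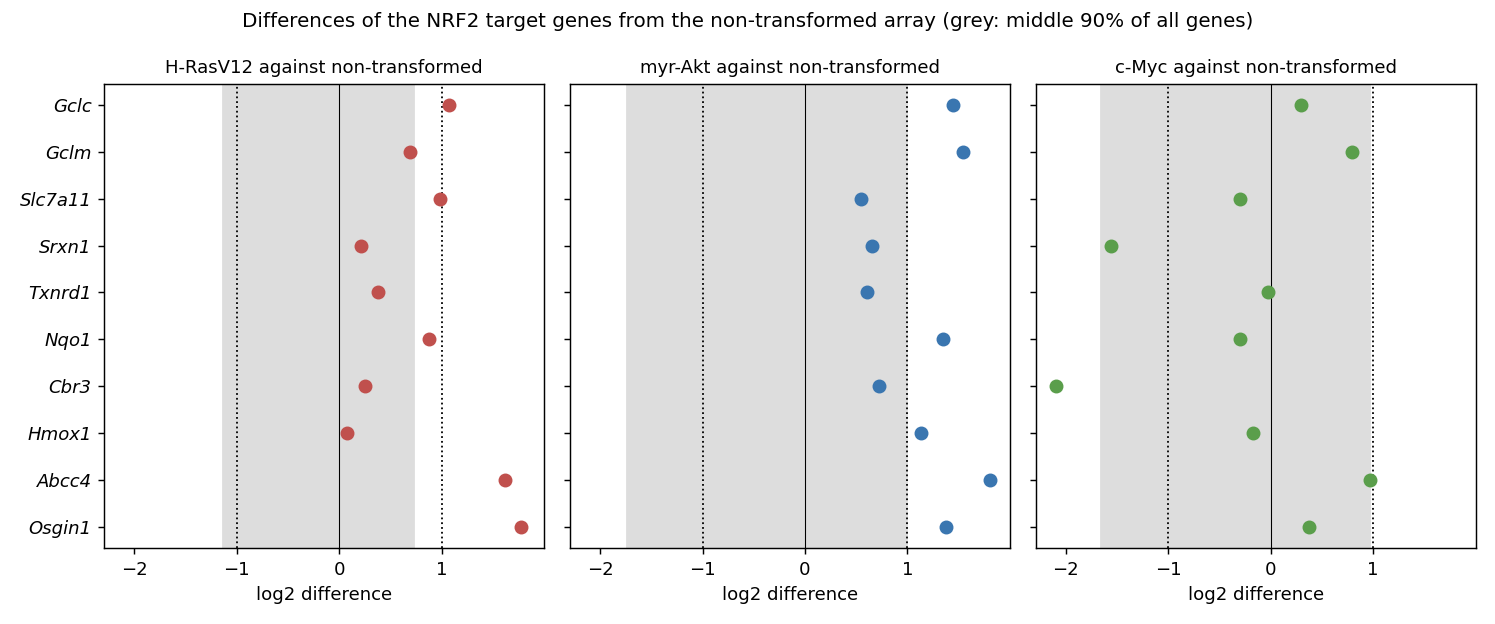
Log2 difference of each NRF2 target gene from the non-transformed array for H-RasV12, myr-Akt and c-Myc, with 1 point for 1 gene, dotted lines at 2-fold and a grey band over the 5th to 95th percentile of all genes. All points lie right of 0 for H-RasV12 and myr-Akt, while for c-Myc they lie on both sides, with Cbr3 at -2.10 and Srxn1 at -1.56 farthest left; Txnrd1, Hmox1 and Nqo1 cross to the right of 0 with median scaling.

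The myr-Akt array and that labelled c-Myc were set against each other directly, a comparison that does not use the non-transformed array. Over all genes they differed little: on the myr-Akt array 1.53% were higher by 2-fold or more and 2.01% lower. All 10 NRF2 targets were higher by any amount on the myr-Akt array, a share that was not counted for all genes. By at least 2-fold 6 were higher, and the median was 1.08 against 0 for all genes. Cbr3 had a signal of 1689 on the myr-Akt array against 239 on the c-Myc array, 7.06 times higher, and 0.0843% of all genes lay as high. Srxn1 was 4.65 times higher, Nqo1 3.13 times, Hmox1 2.46 times and Gclc 2.22 times. Osgin1 stood at the limit, 2.00 times higher, and was under it with a pseudocount (0.82), with median scaling (0.96) and with quantile normalization (0.98). Slc7a11, at least 1.80 times higher, Abcc4, 1.78 times, Gclm, 1.67 times, and Txnrd1, 1.54 times, were below the limit, and with the floor at 40% of the trimmed mean Slc7a11 was at the floor on both arrays. Of the 8 further probe sets, 7 ran the same way and 1 was under the floor on both arrays. Of 9 mesenchymal markers 2 were at least 2-fold higher on the myr-Akt array, of 6 mesothelial markers none, and of 6 progenitor and biliary markers 1 was higher and 2 were lower, Dlk1 by the most (-3.71), and their part was not tested.

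**Figure D4:**
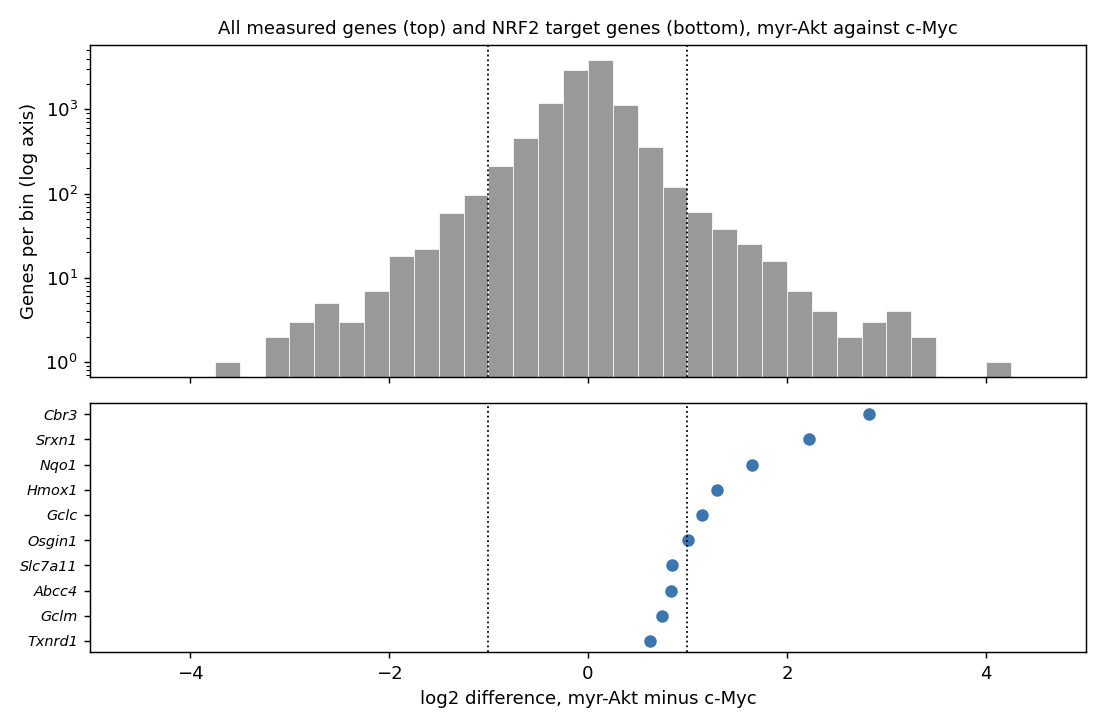
Number of genes (log axis) per bin of the log2 difference, myr-Akt minus c-Myc, over all 10679 measured genes in the upper panel, and the difference of each NRF2 target gene in the lower panel, with dotted lines at 2-fold. All 10 points lie right of 0, from Txnrd1 at 0.63 to Cbr3 at 2.82, while most genes lie within 2-fold.

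The array labelled H-RasV12 was also set against the other transformed arrays. Against myr-Akt, 8 of the 10 genes were lower by any amount on the H-RasV12 array, a share that was not counted for all genes. The median was -0.41 for the 10 genes and 0 for all genes. Of the 10, 1, Hmox1 (-1.06), was lower by at least 2-fold, against 4.38% of all genes, while 0 were at least 2-fold higher, against 9.35%. Hmox1 missed the limit with a pseudocount, at -0.99. Against c-Myc, 5 of the 10 were at least 2-fold higher on the H-RasV12 array, against 8.76% of all genes, and 0 lower, against 5.11%. They were Cbr3 (2.35), Srxn1 (1.77), Osgin1 (1.40), Slc7a11 (at least 2.43 times higher) and Nqo1 (1.17). Slc7a11 was under 2-fold in 3 of 7 alternatives, at 0.28 with the floor at 40% of the trimmed mean, at 0.80 with the mean over probe sets and at 0.82 with a pseudocount. Nqo1 was under it with a pseudocount, at 0.96, and with median scaling, at 0.92. Hmox1 (0.24) and Gclm (-0.11) differed little between these arrays, and their signs turned, to -0.02 with median scaling and to 0.15 with the mean over probe sets.

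Among themselves, the 10 profiles were compared by the Euclidean distance between log2 signals centred on each gene's mean over the 4 arrays. Gclc and Nqo1 were the closest pair, 0.45 apart on the log2 scale, followed by Srxn1 and Cbr3 at 0.50 and by Gclc and Abcc4 at 0.51. Gclm and Cbr3 were the farthest apart, at 2.22. The close pairs thus joined genes of different roles, and the distance between the ligase subunits Gclc and Gclm was 0.63. Of 8956 other genes above the floor on all 4 arrays, Ciart (0.32), Ddr2 (0.34), Slc25a29 (0.36), Opa3 (0.37) and Taf3 (0.40) lay nearest to the mean profile of the 9 NRF2 targets above the floor on all arrays, by the same distance over 4 arrays.

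Nfe2l2, which encodes NRF2, had a signal of 4429 on the H-RasV12 array, 3303.5 on the myr-Akt array and 2470.3 on the c-Myc array, against 4228 on the non-transformed array. Its signal was highest on the H-RasV12 array and lowest on the c-Myc array, at a log2 difference of -0.78 from non-transformed. Keap1, the adaptor that marks NRF2 for breakdown, had a signal of 1067 on the H-RasV12 array, 905 on the myr-Akt array and 809 on the c-Myc array, against 1022 on the non-transformed array. Bach1 had a signal of 1899 on the H-RasV12 array, 2329.6 on the myr-Akt array and 2989 on the c-Myc array, against 2241 on the non-transformed array. Its log2 difference from non-transformed was -0.24 on the H-RasV12 array, 0.06 on the myr-Akt array and 0.42 on the c-Myc array, all within 2-fold. Of the small MAF partners, Mafg lay between 1754 and 1914 on all 4 arrays and Mafk between 593 and 778, while Maff was 2.78 times lower on the myr-Akt array, at 454 against 1263.5 in non-transformed cells. NRF2 is controlled mainly as a protein, which arrays do not measure.

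Of 17 listed regulators, 16 had a signal above the floor on some array. Past 2-fold upwards and downwards were 0 and 1 on the H-RasV12 array (2.08% and 6.27% of all genes), 0 and 2 on the myr-Akt array (4.9% and 12.7%) and 2 and 1 on the c-Myc array (4.42% and 11.3%), each against non-transformed. With 16 genes, counts this small lie near those shares and say nothing about the regulators as a group. Nfe2l3, a relative of NRF2, was lower on all 3 (-1.89, -1.88 and -1.12). Palb2, a BRCA2 partner that can bind KEAP1, and Rbx1, the RING subunit of the ligase that marks NRF2, were higher on the c-Myc array (1.19 and 1.06).

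Other targets ascribed to NRF2 did not all differ in the way the 10 genes did. Of 42 listed in detoxification, heme and iron handling, export and protein turnover, 37 had a probe set for that gene alone and 29 had a signal above the floor on some array. Against non-transformed, 0 and 5 were past 2-fold upwards and downwards on the H-RasV12 array (2.08% and 6.27% of all genes), with a median of -0.16. On the myr-Akt array the counts were 3 and 2 (4.9% and 12.7% of all genes), with a median of 0.15. On the c-Myc array they were 2 and 3 (4.42% and 11.3% of all genes), with a median of -0.28. Between myr-Akt and c-Myc, 3 of the 29 were higher by 2-fold or more and 0 lower, against 1.53% and 2.01% of all genes. The median of the 29 was 0.15 there, beside the 1.08 of the 10 genes. The 3 were Gsta4, a glutathione transferase (1.54), Cbr1, the relative of Cbr3 (1.12), and Ephx1, the microsomal epoxide hydrolase (1.01).

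Single genes of these lists differed widely. Gstm1, a glutathione transferase, was 4.13 times higher on the myr-Akt array and 3.08 times on the c-Myc array than in non-transformed cells, and Slc40a1, the iron exporter ferroportin, 4.29 and 2.56 times. Abcb6, a porphyrin transporter, was 2.97 times higher on the myr-Akt array. Akr1b8, an aldo-keto reductase, was instead 3.11 times lower on the myr-Akt array and 4.63 times lower on the c-Myc array, and Mgst2 3.96 and 3.89 times lower. On the H-RasV12 array Aldh1a1, a retinaldehyde dehydrogenase, was 3.69 times lower than in non-transformed cells, Slc48a1, a heme transporter, 3.36 times and Gstm2 2.69 times.

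Enzymes that work beside the 10 genes were mostly within 2-fold. Of 4 measured genes of glutathione synthesis and recycling, 1 was at least 2-fold higher on the myr-Akt array, against 4.9% of all genes. It was the glutathione reductase gene Gsr, with 2582 on the myr-Akt array against 1228.5 on the non-transformed array. None of the 4 passed 2-fold on the H-RasV12 or c-Myc array. Of 6 genes that supply NADPH, 1, Pgd of the pentose phosphate pathway, was at least 2-fold higher on the myr-Akt array (2.46 times), against the same 4.9%. With 4 and 6 genes, 1 such gene in each list says nothing about the lists as groups. The medians of the 6 were 0.38 on the H-RasV12 array, 0.53 on the myr-Akt array and 0.24 on the c-Myc array. Of 9 thioredoxin and peroxiredoxin partners, Txnip, the thioredoxin-binding protein that AKT and glucose control, was lower on all 3 transformed arrays (-1.29, -2.25 and -2.08). Sesn2, a sestrin, was 2.10 times higher on the myr-Akt array and Txnrd2, the mitochondrial thioredoxin reductase, 2.05 times on the c-Myc array.

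Targets of ATF4, the factor of the amino acid response that shares Slc7a11 with NRF2, were followed in the same arrays. Of 17, 3 were at least 2-fold higher on the myr-Akt array than in non-transformed cells, namely Atf3 (1.57), Chac1 (1.09), which breaks down glutathione, and Cth (1.04), which makes cysteine, against 4.9% of all genes. Between myr-Akt and c-Myc, 4 of 17 were higher and 0 lower (median 0.41), with Trib3 at 2.19, Chac1 at 1.46, Cth at 1.43 and Ddit3 at 1.30. Over all genes 1.53% were as much higher in this comparison. The other 13 ATF4 targets were within 2-fold, down to Cebpb at -0.30, and the part of ATF4 in the differences of the 10 genes was not tested. On the H-RasV12 array 0 were higher and 1 lower, against 2.08% and 6.27% of all genes, with a median of -0.35, where the 10 NRF2 targets had a median of 0.78.

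**Figure D5:**
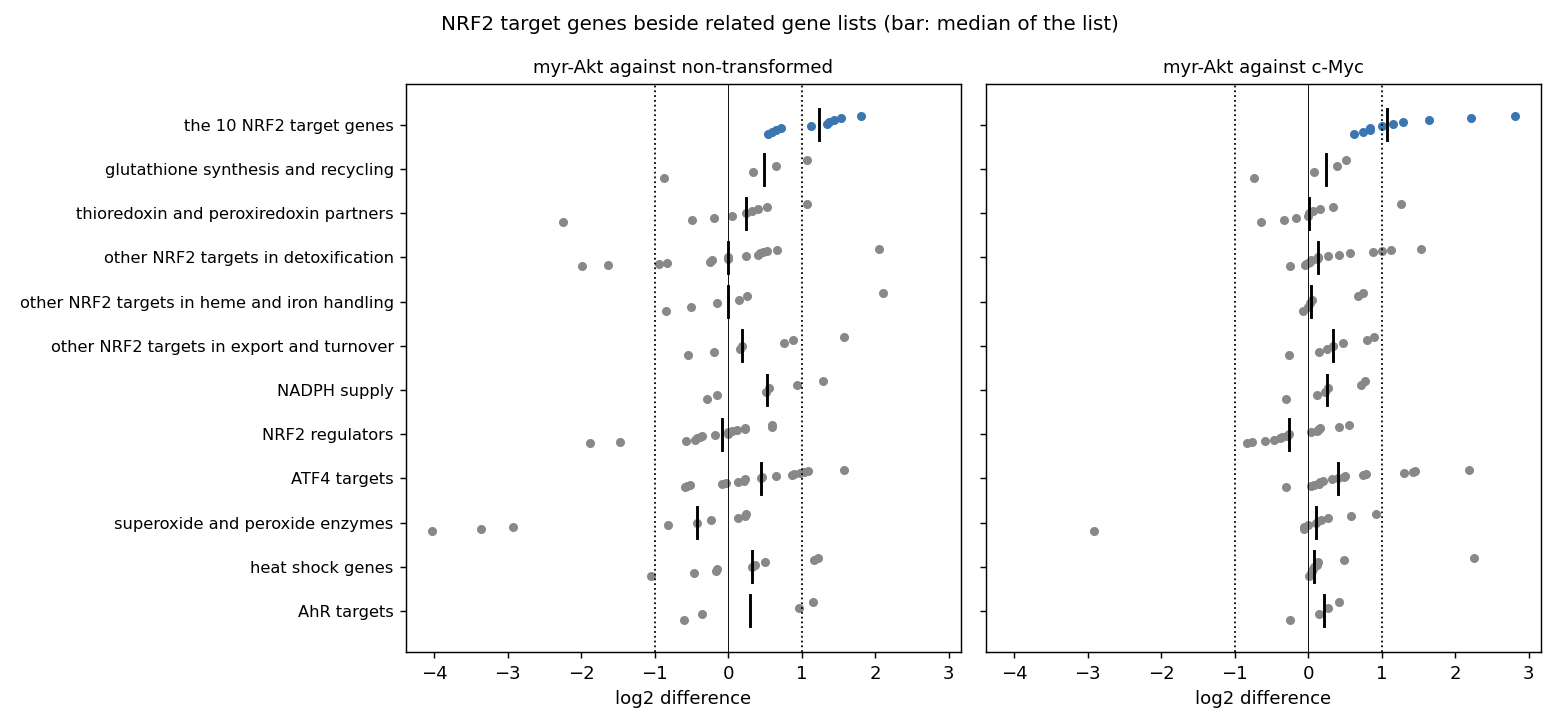
Log2 difference of each gene (point) in the 10 NRF2 target genes and in 11 related lists, for myr-Akt against non-transformed (left) and myr-Akt against c-Myc (right), with a bar at the median of a list and dotted lines at 2-fold. The medians of the 10 genes lie at 1.24 and 1.08, and those of the other lists lie between -0.43 and 0.53 on the left and between -0.26 and 0.41 on the right.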

How the data were processed

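The authors deposited linear probe-set intensities, which the software MAS5 produced, per the submitters' processing notes, from cRNA of 1 µg of total RNA, per the labels' protocols. No source used here gives its version, detection calls or filters. Each array had a mean of 500.003 once 2% was trimmed from either end. Arrays were scaled to it, a floor at 20% of it was set, and log2 was taken (Python 3.11.15, pandas 2.3.3, NumPy 2.4.6). Leaving out 64 controls, 34945 probe sets had 1 gene symbol, 932 several and 9160 none here. All 34741 matched by Entrez identifier to RefSeq (GRCm38.p6) kept their symbol. Each gene was represented by its brightest probe set, by the mean over the 4 arrays. Alternatives were a floor at 10% or 40%, a pseudocount, the mean over probe sets, probe sets without a suffix for several transcripts, median scaling and quantile normalization. The 5′ to 3′ ratio of beta-actin lay between 0.846 and 0.907. No scan batch is given, so batch and culture cannot be told apart. The counting was tested on simulated data. The 10 members and the lists were chosen with earlier results of these data known, so counts over them are descriptions. Beside the members, the text names the 6 core regulators and genes of the lists. Most of the latter come from up to 4 genes past 2-fold per list and comparison, taken by size, and not all of these are named. Markers were named from a fixed list.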

Additional observations from a re-analysis of the deposited data

How the results depend on the processing

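Of the counts and medians over the 10 genes under the alternatives, 137 stayed within 1.5 times of the reported value and 5 did not, and of the differences of single genes 408 did and 6 did not. No difference of 2-fold or more changed sign. With the mean over probe sets, 1 gene in place of 2 was at least 2-fold lower on the c-Myc array than on the non-transformed one, since 2 Srxn1 probe sets were under the floor there. With median scaling, 2 genes in place of 0 were at least 2-fold higher on the c-Myc array than on the non-transformed one, Abcc4 (1.32) and Gclm (1.15), and 2 in place of 1 were at least 2-fold lower on the H-RasV12 than on the myr-Akt array. That scaling moved the median of all genes to 0.09 for H-RasV12, to 0.25 for myr-Akt and to 0.31 for c-Myc, each against non-transformed. With a pseudocount, 0 genes in place of 1 were at least 2-fold lower on the H-RasV12 than on the myr-Akt array and 3 in place of 5 at least 2-fold higher on the H-RasV12 than on the c-Myc array. The orders over the 4 arrays, and those without the c-Myc array, were checked in ways chosen after seeing the data, and 8 genes were then highest on the myr-Akt array, or 7 of the 9 left when probe sets with a suffix were dropped. All 3 Txnrd1 probe sets carry a suffix, so this gene was not measured then. No paired analysis was possible because each group holds 1 array. Signals near the floor limit Slc7a11 most.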

Other observations

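Among 9 measured enzymes that form or remove superoxide and peroxide, outside the NRF2 lists, 3 were lower by 2-fold or more on the myr-Akt array and 0 higher, against 12.7% and 4.9% of all genes. On the c-Myc array the counts were likewise 3 and 0, against 11.3% and 4.42%, each relative to non-transformed cells. The others were within 2-fold, and Sod1 (0.14), Sod2 (0.24) and Cat (0.23) had slightly higher signals on the myr-Akt array. Gpx3, the secreted glutathione peroxidase, had a signal of 584 on the H-RasV12 array and was under the floor on the myr-Akt and c-Myc arrays, against 1640.3 on the non-transformed array, so it was at least 16.4 times lower on these 2 arrays. Gpx7, a peroxidase of the endoplasmic reticulum, was 7.61 times lower on the myr-Akt array and 14.5 times lower on the c-Myc array. Cyba, the p22phox subunit of NADPH oxidases, had a signal of 2536 on the H-RasV12 array, 267 on the myr-Akt array and 2016 on the c-Myc array, against 2756 on the non-transformed array, so it was low on the myr-Akt array alone.

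Of 9 heat shock genes, Hspb8, a small heat shock protein, had a signal of 280.2 on the H-RasV12 array, 1896 on the myr-Akt array and 396 on the c-Myc array, against 1512 on the non-transformed array. Hspb1 was lower on all 3 transformed arrays (-1.21, -1.04 and -1.10), while Hspa1b was 2.34 times higher on the myr-Akt array and 2.33 times on the c-Myc array. Hsph1 was 2.24 times higher on the myr-Akt array, and Hspa1a was 2.59 times lower on the H-RasV12 array, each against non-transformed. The AhR list, which holds the receptor gene Ahr itself and shares Nfe2l2 with the regulators, had 4 measured genes. At least 2-fold higher were 1 on the myr-Akt array and 2 on the c-Myc array, against 4.9% and 4.42% of all genes. Tiparp was higher on the myr-Akt (1.16) and c-Myc (1.01) arrays and Ahr on the c-Myc array (1.21). Cyp1b1 (-0.60 and -0.88) and Nfe2l2 (-0.36 and -0.78) had lower signals on the myr-Akt and c-Myc arrays, within 2-fold. Cyp1a1 was under the floor on all 4 arrays.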
